A study of Homo sapiens with 3 samples.

Results

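The 32 genes described here are direct targets of the tumor suppressor p53, chosen by name from a table of 44591 genes measured in Caki-1 cells after depletion of RBCK1. The rule that chose them used gene names and no measured value, but it was written with earlier results of these data known. p53 is a transcription factor that binds DNA as a tetramer at a pair of short half-sites and raises the transcription of nearby genes. In unstressed cells its protein is held low by ubiquitin ligases such as MDM2, and DNA damage and other stresses lift that restraint. Its targets stop the cell cycle, repair DNA, start apoptosis, or adjust metabolism and autophagy.

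Caki-1 is an established human clear cell renal carcinoma line, which the study's methods describe as expressing wild-type p53. RBCK1, which the labels call HOIL-1, is a ubiquitin ligase of the RBR (RING-IBR-RING) family and a subunit of the linear ubiquitin chain assembly complex. Cells received either si-Control, which has no target, or 1 of 2 oligos directed at RBCK1, named si-RBCK1 #1 and si-RBCK1 #2, and total RNA depleted of ribosomal RNA was sequenced 48 h later. The study asked which transcripts changed with loss of RBCK1 and how these related to p53. All 3 groups shared the cell line and the transfection, and no p53-depleted sample was part of the series.

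There was 1 library per condition. No difference could therefore be set against a spread between replicates, and no test was made. The pair of siRNAs differ in sequence, so their libraries were kept apart. Both were compared with the same si-Control library, so a high or low value in that library enters both ratios. Levels are RPKM, reads scaled to gene length and to the total of the library, and a ratio is the log2 of (RPKM + 1) in a si-RBCK1 library over si-Control unless reads are named. In RNA from a whole culture, fewer cells expressing a gene and less RNA per cell cannot be told apart.

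Library totals were between 36344428 and 40442939 reads. RBCK1 itself was at 33.3 RPKM in si-Control, 9.97 RPKM in si-RBCK1 #1 and 12.3 RPKM in si-RBCK1 #2, so it was lower in both libraries labelled as depleted. Of 11 renal tubule and clear cell carcinoma markers, 7 were at 1 RPKM or more in every library, and PAX2, CA9, LRP2 and CUBN were below 1 RPKM in all of them. Their summed level was 1139 RPKM in si-Control, 2056 RPKM in si-RBCK1 #1 and 2059 RPKM in si-RBCK1 #2. Most of this sum was VIM, at 664, 1512 and 1392 RPKM in the same order, while PAX8, MET and CDH2 were lower in both si-RBCK1 libraries (PAX8 at 124, 82.5 and 107 RPKM). Of 7 markers of other cell types, 6 were below 1 RPKM in all libraries, including PTPRC of leukocytes and PECAM1 of endothelium. The exception was COL1A1, at 4.68 RPKM in si-Control, 3.21 RPKM in si-RBCK1 #1 and 4.41 RPKM in si-RBCK1 #2.

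The siRNAs are shown because they are what separates the libraries. The sense strands below carry in capitals the bases that pair with bases 2 to 8 of the guide strand, and each whole sequence lay in an RBCK1 transcript.
si-RBCK1 #1: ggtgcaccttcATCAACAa
si-RBCK1 #2: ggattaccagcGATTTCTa
The capital letters of si-RBCK1 #1 occurred in the longest coding transcript of 7 of 32 members (21.9%), against 23.8% of 10548 genes tested. Those of si-RBCK1 #2 occurred in 13 of 32 members (40.6%), against 29.2%. The part of such matches in the levels was not tested.

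Sequence near the start sites is shown for members whose promoter held a p53 motif. A half-site is 3 purines, the core of C, A or T at the next 2 places and G, and then 3 pyrimidines, a pattern that reads the same on both strands. A full site is 2 such half-sites with intact cores, at most 2 bases between them and at most 3 mismatches outside the cores, and a half-site within a full site was counted as both. In RefSeq promoters (GRCh38.p14, 250 bases before to 50 bases after a start site), 26 members were matched. A full site lay in the promoters of 6 of these 26 genes (23.1%), against 1.48% of all 27305 genes, and a half-site in 7 (26.9%), against 8.06%. The members were chosen as known p53 targets, so this is a description of their promoters. Capitals mark the motif, and each sequence runs 5′ to 3′ on the gene's strand.
SESN1 (chr6:109009013-109009042, minus strand): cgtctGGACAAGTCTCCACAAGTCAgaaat
FAS (chr10:88991304-88991333, plus strand): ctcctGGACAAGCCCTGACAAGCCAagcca
DDB2 (chr11:47214975-47215004, plus strand): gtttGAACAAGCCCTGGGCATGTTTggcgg
RPS27L (chr15:63157522-63157551, minus strand): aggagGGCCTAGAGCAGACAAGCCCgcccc
AEN (chr15:88621301-88621330, plus strand): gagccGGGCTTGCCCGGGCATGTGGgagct
GDF15 (chr19:18386178-18386207, plus strand): acctgcacAGCCATGCCCGGGCAAGAACtc
PLK2 (chr5:58460199-58460228, minus strand): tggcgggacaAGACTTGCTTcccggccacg
FDXR (chr17:74872986-74873015, minus strand): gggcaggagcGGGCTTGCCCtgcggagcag
The first 6 hold a full site, and the last 2 hold a half-site only. DDB2 matched the motif with 0 mismatches and 1 base between its half-sites. The genes with a full site did not share 1 direction, since 5 were higher and GDF15 was lower in both si-RBCK1 libraries. A missing match says only that these letters were not in this window.

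The table also holds the authors' fold change and p-value for 23750 genes, all 32 members among them. These were recomputed from the library values, and 21 rows of the table did not follow from their cells, 17 by fold change and 4 by p-value alone. BTG2, TP53I3 and TP53INP1 failed by fold change, and PLK3 by p-value. Their values are given below as listed and enter no count or median, except in an alternative in the last section. This leaves 28 members. Of the 44591 genes, 12383 had a mean of at least 1 RPKM and a row that did not fail, 26 of which had no comparison to check. All 32 members met the same minimum, ACER2 only through its level in the si-RBCK1 libraries.

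Most members were higher in the RBCK1-depleted libraries, and a minority that included the most abundant member was lower. In si-RBCK1 #1, 8 of 28 members (28.6%) were at least 2-fold higher than in si-Control, against 2.83% of all genes tested, and 1 (3.57%) was at least 2-fold lower, against 3.24%. In si-RBCK1 #2, 6 members (21.4%) were at least 2-fold higher, against 2.45%, and 1 (3.57%) was at least 2-fold lower, against 2.24%. ACER2, which met the minimum only through the si-RBCK1 libraries, is among the 8 and is also counted below at 1.5-fold. A minimum mean of 5 RPKM leaves it out, and 7 of 27 and 6 of 27 members were then at least 2-fold higher. The share of all genes was not counted at that minimum. At 1.5-fold, 16 members (57.1%) were higher in si-RBCK1 #1 and 12 (42.9%) in si-RBCK1 #2, against 12% and 11.2% of all genes. At the same limit 3 members (10.7%) were lower in each library, against 11.5% and 9.30% of all genes. The shares of lower members were thus near the background, and those of higher members were above it. The median member ratio was 0.63 in si-RBCK1 #1 and 0.53 in si-RBCK1 #2, where the medians of all genes were 0.02 and 0.03.

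**Figure D1:**
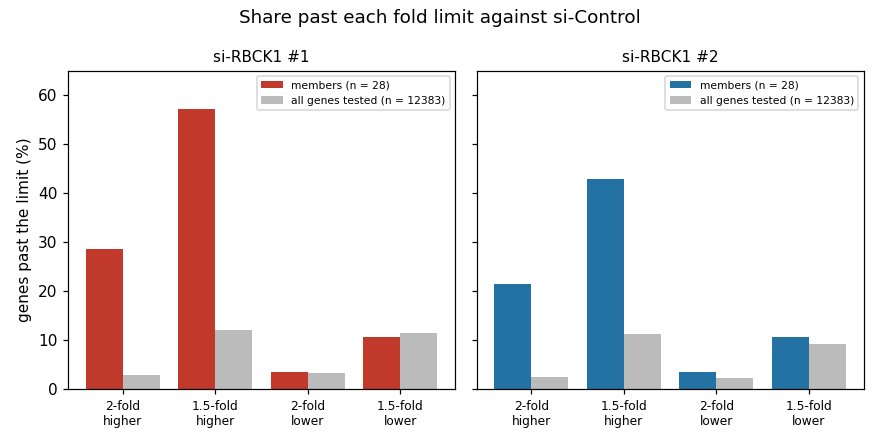
Share of genes (%) at least 2-fold or 1.5-fold higher or lower than si-Control in each si-RBCK1 library, for the 28 members whose rows passed the check (colored bars) and all 12383 genes tested (grey bars). The colored bars stand above the grey ones for higher genes (28.6% against 2.83% at 2-fold in si-RBCK1 #1) and near them for lower genes.

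**Figure D2:**
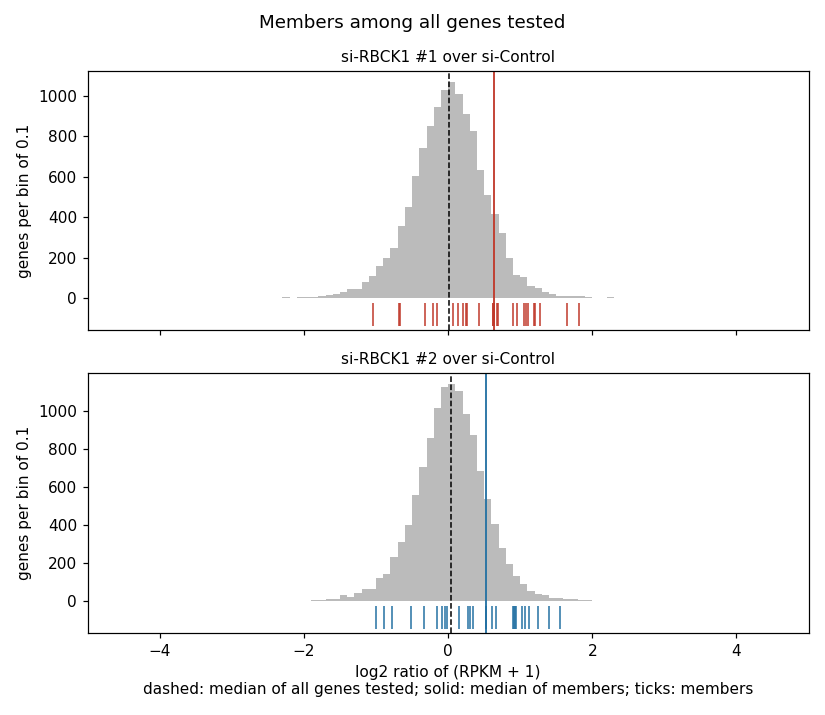
Log2 ratio of (RPKM + 1) to si-Control for all 12383 genes tested (grey bars, genes per bin) with each of the 28 members as a tick, for each si-RBCK1 library. The median of members (solid line) lies at 0.63 and 0.53, to the right of the median of all genes (dashed line), and member ticks lie on both sides of 0.

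Reads were recovered from the RPKM values, and exact 95% intervals on the ratio of reads cover counting error only. By these intervals 21 of 28 members were above si-Control in si-RBCK1 #1 and 6 were below, where 40.2% and 37.6% of all genes with an interval lay above and below. In si-RBCK1 #2, 19 members were above and 6 below, against 41.0% and 34.2%. At this depth most genes thus differed between libraries by more than counting error. Of the 32 members, 15 overlap another listed gene and 7 overlap one at 1 RPKM or more, such as GDF15 with MIR3189 on the same strand. An interval of this kind does not include variation between cultures or between siRNAs.

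**Figure D3:**
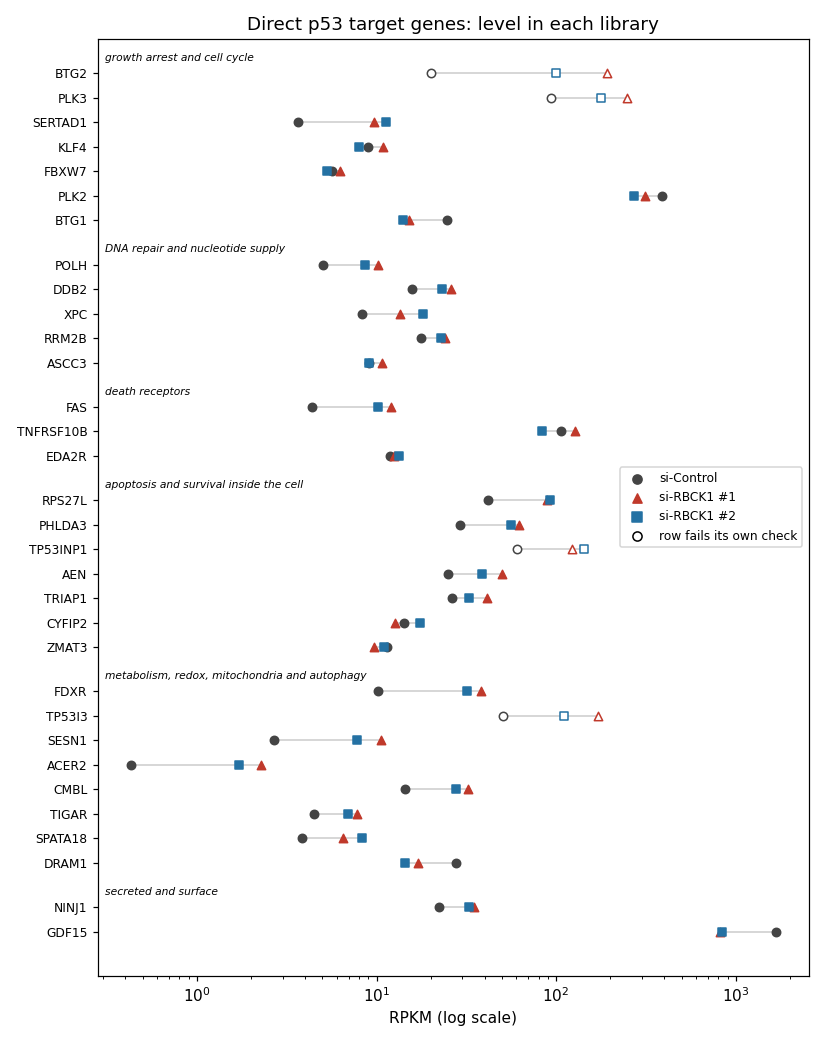
RPKM (log axis) of each of the 32 members in si-Control (circles), si-RBCK1 #1 (triangles) and si-RBCK1 #2 (squares), grouped by role; open symbols are the 4 members whose row failed its own check. Members spanned from 0.427 RPKM for ACER2 to 1680 RPKM for GDF15 in si-Control.

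**Figure D4:**
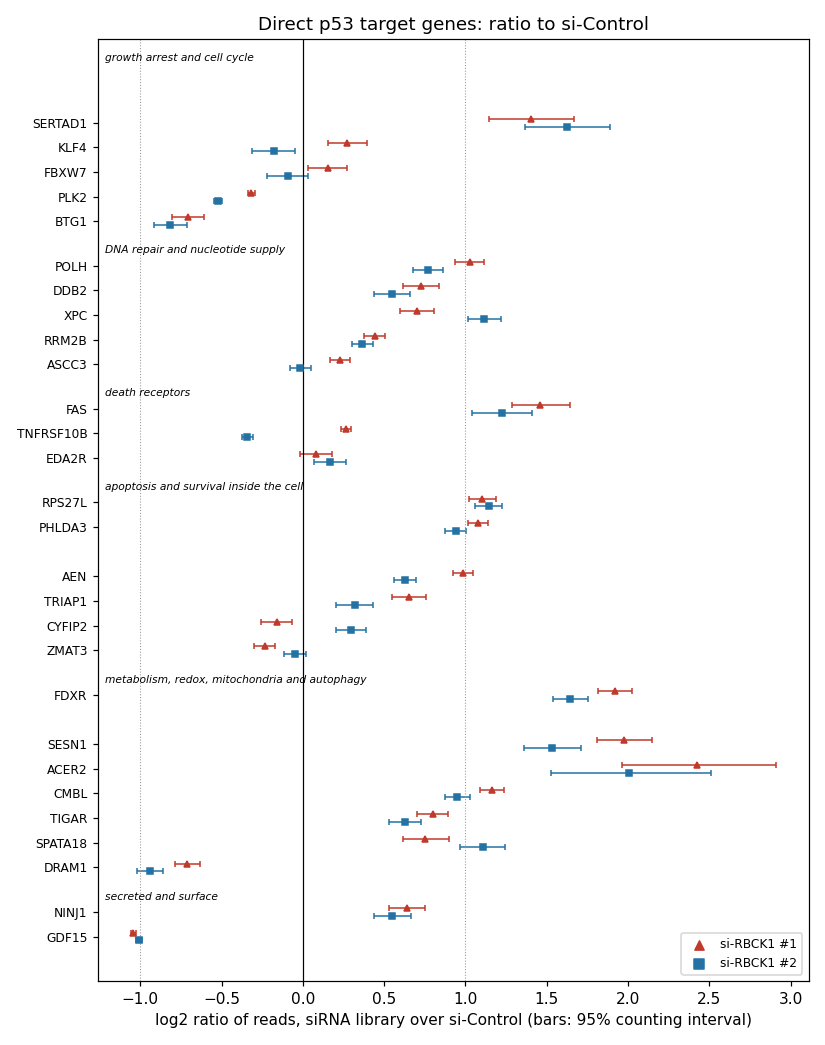
Log2 ratio of recovered reads per library total to si-Control for the 28 members whose rows passed, with exact 95% counting intervals (bars), in si-RBCK1 #1 (triangles) and si-RBCK1 #2 (squares). ACER2 lies farthest to the right and GDF15 farthest to the left in both libraries.

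Among genes of metabolism, redox balance, mitochondria and autophagy, 6 of 7 members were at least 1.5-fold higher in si-RBCK1 #1 and 5 of 7 in si-RBCK1 #2, against 12% and 11.2% of all genes. The median ratio of the group was 1.11 and 0.93. These counts and medians include ACER2, which met the minimum only through its level in the si-RBCK1 libraries. FDXR, the mitochondrial ferredoxin reductase that passes electrons to steroid and iron-sulfur cluster synthesis, was at 10.1 RPKM in si-Control, 38.4 RPKM in si-RBCK1 #1 and 31.8 RPKM in si-RBCK1 #2. Its ratios of 1.82 and 1.55 were the highest of the 28 members in both libraries with a pseudocount of 1 RPKM, at rank 41 and rank 58 of all genes tested. On the ratio of reads, which has no pseudocount, ACER2 (2.42 and 2.01) was above FDXR (1.92 and 1.65) in both libraries and SESN1 (1.98) was above it in si-RBCK1 #1. In hg19, the build of the table, FDXR lies at chr17:72858619-72869156 on the minus strand. SESN1, a sestrin that restrains mTORC1 and limits oxidative stress, was at 2.68 RPKM in si-Control, 10.5 RPKM in si-RBCK1 #1 and 7.76 RPKM in si-RBCK1 #2. The ratios of SESN1, at chr6:109307640-109415708 in hg19, were 1.65 and 1.25.

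ACER2, a Golgi ceramidase that produces sphingosine, was the member with the lowest level. It was at 0.427 RPKM in si-Control, 2.29 RPKM in si-RBCK1 #1 and 1.72 RPKM in si-RBCK1 #2. The si-Control value of ACER2 rested on 45 reads, and its interval on the log2 ratio of reads ran from 1.96 to 2.91 in si-RBCK1 #1, wide because of these few reads. CMBL, a cytosolic hydrolase, was at 14.4 RPKM in si-Control, 32.3 RPKM in si-RBCK1 #1 and 27.9 RPKM in si-RBCK1 #2. Both si-RBCK1 values of CMBL were close to each other and far from si-Control.

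TIGAR, a fructose bisphosphatase that lowers glycolytic flux, was at 4.48 RPKM in si-Control, 7.79 RPKM in si-RBCK1 #1 and 6.93 RPKM in si-RBCK1 #2. SPATA18, also named Mieap, which takes part in the quality control of mitochondria, was at 3.85 RPKM in si-Control, 6.49 RPKM in si-RBCK1 #1 and 8.29 RPKM in si-RBCK1 #2. Unlike TIGAR, SPATA18 was higher in si-RBCK1 #2 than in si-RBCK1 #1. DRAM1, a lysosomal membrane protein that promotes autophagy, lay on the other side of si-Control from the rest of the group. DRAM1 was at 27.7 RPKM in si-Control, 17.0 RPKM in si-RBCK1 #1 and 14.4 RPKM in si-RBCK1 #2, with ratios of -0.68 and -0.90.

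Among apoptosis and survival genes that act inside the cell, 4 of 6 members were at least 1.5-fold higher in si-RBCK1 #1 and 3 of 6 in si-RBCK1 #2, where the shares of all genes were 12% and 11.2%. RPS27L, a ribosomal protein paralog that modulates p53 stability, was at 41.7 RPKM in si-Control, 89.5 RPKM in si-RBCK1 #1 and 92.0 RPKM in si-RBCK1 #2. Reads from its paralog RPS27 could be split between the genes, and RPS27 was at 1118, 1630 and 1335 RPKM in the same order, so the RPS27L value is uncertain to that extent. PHLDA3, an inhibitor of Akt signaling, was at 29.3 RPKM in si-Control, 61.8 RPKM in si-RBCK1 #1 and 56.3 RPKM in si-RBCK1 #2. The ratios of PHLDA3 were 1.05 and 0.92.

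AEN, a nuclease that degrades DNA in apoptosis, was at 25.1 RPKM in si-Control, 49.7 RPKM in si-RBCK1 #1 and 38.9 RPKM in si-RBCK1 #2. TRIAP1, a mitochondrial lipid transfer factor that opposes apoptosis, was at 26.2 RPKM in si-Control, 41.2 RPKM in si-RBCK1 #1 and 32.7 RPKM in si-RBCK1 #2. Genes that favor and genes that oppose apoptosis were thus both among those with a higher level. CYFIP2, a subunit of the WAVE actin regulatory complex, lay on opposite sides of si-Control, at 14.1 RPKM in si-Control, 12.7 RPKM in si-RBCK1 #1 and 17.4 RPKM in si-RBCK1 #2. ZMAT3, a zinc finger protein that binds RNA, differed from si-Control by less than 1.5-fold in both libraries.

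The 3 receptors of the TNF receptor family are grouped as death receptors in the figures. Of these, FAS was at least 2-fold higher in both libraries, against 2.83% of all genes in si-RBCK1 #1 and 2.45% in si-RBCK1 #2. FAS, the receptor of FAS ligand, was at 4.36 RPKM in si-Control, 11.99 RPKM in si-RBCK1 #1 and 10.2 RPKM in si-RBCK1 #2. It overlaps ACTA2 on the opposite strand, which was at 5.93, 7.0 and 6.89 RPKM in the same order. TNFRSF10B, a receptor of TRAIL and the third most abundant member in si-Control, was at 106 RPKM in si-Control, 128 RPKM in si-RBCK1 #1 and 83.7 RPKM in si-RBCK1 #2, and so lay on opposite sides of si-Control. EDA2R, the receptor of ectodysplasin A2, had ratios of 0.07 and 0.16.

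All 5 genes of DNA repair and nucleotide supply had counting intervals above si-Control in si-RBCK1 #1, against 40.2% of all genes with an interval. Of these, 3 were at least 1.5-fold higher (12% of all genes), and 2 reached that limit in si-RBCK1 #2 (11.2% of all genes). XPC, which recognizes damage in global genome nucleotide excision repair, was at 8.33 RPKM in si-Control, 13.5 RPKM in si-RBCK1 #1 and 18.1 RPKM in si-RBCK1 #2. DDB2, which finds ultraviolet lesions in the same pathway, was at 15.8 RPKM in si-Control, 26.1 RPKM in si-RBCK1 #1 and 23.0 RPKM in si-RBCK1 #2. DDB2 and XPC differed in their order between the si-RBCK1 libraries, with XPC higher in si-RBCK1 #2 and DDB2 higher in si-RBCK1 #1.

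POLH, the DNA polymerase eta that copies past ultraviolet lesions, was at 5.03 RPKM in si-Control, 10.2 RPKM in si-RBCK1 #1 and 8.59 RPKM in si-RBCK1 #2. It overlaps GTPBP2 on the opposite strand, which was lower in the si-RBCK1 libraries at 62.7, 31.8 and 28.0 RPKM. Whether counting used strand is not given in the sources used here, so reads of POLH and GTPBP2 may not be fully separated. RRM2B, the p53-inducible subunit of ribonucleotide reductase, had ratios of 0.42 and 0.35. ASCC3, a helicase of alkylation repair, was at 9.12 RPKM in si-Control, 10.7 RPKM in si-RBCK1 #1 and 9.03 RPKM in si-RBCK1 #2. The second ratio of ASCC3, -0.01, was within counting error of 0.

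The 5 usable genes of growth arrest and the cell cycle were divided, with a median ratio of 0.13 in si-RBCK1 #1 and -0.16 in si-RBCK1 #2. BTG2 and PLK3 also belong to this group, but their rows failed the check and are left out. SERTAD1, a regulator of CDK4 and E2F activity, was at 3.64 RPKM in si-Control, 9.62 RPKM in si-RBCK1 #1 and 11.2 RPKM in si-RBCK1 #2. BTG1, an antiproliferative factor of the BTG/TOB family, was lower, at 24.6 RPKM in si-Control, 15.1 RPKM in si-RBCK1 #1 and 14.0 RPKM in si-RBCK1 #2. PLK2, a polo-like kinase and the second most abundant member in si-Control, was at 388 RPKM in si-Control, 312 RPKM in si-RBCK1 #1 and 270 RPKM in si-RBCK1 #2. SERTAD1 and BTG1 each lay on the same side of si-Control in both libraries, in opposite directions.

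KLF4, a zinc finger transcription factor, was at 9.01 RPKM in si-Control, 10.9 RPKM in si-RBCK1 #1 and 7.96 RPKM in si-RBCK1 #2. FBXW7, the substrate receptor of a ubiquitin ligase for cyclin E and MYC, was at 5.66 RPKM in si-Control, 6.29 RPKM in si-RBCK1 #1 and 5.30 RPKM in si-RBCK1 #2. For both, si-Control lay between the si-RBCK1 libraries.

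GDF15, a secreted stress cytokine of the TGF-beta superfamily, was the most abundant member and had the lowest ratios of the 28. It was at 1680 RPKM in si-Control, 815 RPKM in si-RBCK1 #1 and 836 RPKM in si-RBCK1 #2, with ratios of -1.04 and -1.01. In hg19 it lies at chr19:18496770-18499987 on the plus strand. The si-RBCK1 values of GDF15 were near each other and at about the 2-fold limit below si-Control. NINJ1, a membrane protein that ruptures the plasma membrane in lytic cell death, was at 22.4 RPKM in si-Control, 34.8 RPKM in si-RBCK1 #1 and 32.8 RPKM in si-RBCK1 #2.

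The si-RBCK1 libraries were also set against each other, which compares 2 libraries and not the siRNAs. By the intervals on reads, 18 of 28 members were higher in si-RBCK1 #1, against 29.1% of all genes, and 6 were higher in si-RBCK1 #2, against 33.4%. For BTG1, EDA2R, RPS27L and NINJ1 the interval held equality. The 6 were SERTAD1, XPC, CYFIP2, ZMAT3, SPATA18 and GDF15. RBCK1 was at 9.97 RPKM in si-RBCK1 #1 and 12.3 RPKM in si-RBCK1 #2, and its part in these differences was not tested.

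The 4 members whose rows failed are given as listed, with no reads, interval or count. BTG2, an antiproliferative relative of BTG1, was listed at 20.2 RPKM in si-Control, 191 RPKM in si-RBCK1 #1 and 100 RPKM in si-RBCK1 #2. TP53I3, a quinone oxidoreductase, was listed at 50.8, 171 and 111 RPKM in the same order. TP53INP1, a nuclear protein that promotes p53 activity and autophagy, was listed at 60.8, 123 and 143 RPKM. PLK3, a stress-responsive polo-like kinase, was listed at 93.4, 248 and 177 RPKM. Each was listed higher in both si-RBCK1 libraries, but which cells of these rows are off cannot be read from the rows, so these values carry no direction here.

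Of 21 genes that regulate p53, 19 were at a mean of 1 RPKM or more. Their median ratio was -0.10 in si-RBCK1 #1 and 0.10 in si-RBCK1 #2, and 3 (15.8%) were at least 1.5-fold higher in each library, near the 12% and 11.2% of all genes. At the same limit 1 (5.26%) was lower in si-RBCK1 #1 and 0 in si-RBCK1 #2, against 11.5% and 9.30% of all genes. PPM1D, a phosphatase that reverses p53 activation and is itself a p53 target, was at 6.34 RPKM in si-Control, 22.8 RPKM in si-RBCK1 #1 and 14.7 RPKM in si-RBCK1 #2. MDM2, the main ubiquitin ligase of p53 and also its target, was at 26.0 RPKM in si-Control, 39.1 RPKM in si-RBCK1 #1 and 50.9 RPKM in si-RBCK1 #2. HIPK2, a kinase that phosphorylates p53, was at 21.1 RPKM in si-Control, 9.96 RPKM in si-RBCK1 #1 and 20.8 RPKM in si-RBCK1 #2, lower in 1 of the libraries only.

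A further 25 p53 targets outside the 32 were listed, of which 16 could be used. CDKN1A, CCNG1, BAK1 and PML failed the row check, and 5 were below the minimum level. The median ratio of the 16 was 0.48 in si-RBCK1 #1 and 0.31 in si-RBCK1 #2. In si-RBCK1 #1, 3 (18.8%) were at least 2-fold higher, against 2.83% of all genes, and 1 (6.25%) was at least 2-fold lower, against 3.24%. In si-RBCK1 #2, 4 (25.0%) were at least 2-fold higher, against 2.45%, and 2 (12.5%) were at least 2-fold lower, against 2.24%. These 4 include SCO2, at 0.418 RPKM in si-Control, 1.69 RPKM in si-RBCK1 #1 and 2.14 RPKM in si-RBCK1 #2. SCO2 met the minimum only through its level in the si-RBCK1 libraries, had 21 reads in si-Control, and also enters the medians. BBC3, a BH3-only activator of apoptosis, was at 6.89 RPKM in si-Control, 16.8 RPKM in si-RBCK1 #1 and 16.8 RPKM in si-RBCK1 #2. GADD45A, a stress sensor of growth arrest and repair, was lower, at 369, 156 and 119 RPKM in the same order. BAX, a pore-forming protein of apoptosis, was at 71.8, 74.1 and 89.2 RPKM.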

How the data were processed

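Caki-1 RNA was sequenced with 1 library per condition at 48 h after transfection with 10 nmol/L siRNA. Per the labels, libraries were directional and read as pairs, and the submitters' processing notes name hg19, FastQC, Trimmomatic, TopHat2 and HTSeq, with roles not given in the sources used here. The authors deposited RPKM per gene and library, together with comparison columns for 23750 genes: control and treated levels, their fold change on the log2 scale, its p-value and the adjusted q-value. These comparison columns were read only to check each row, and none of their values is reported.

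The deposited log2 fold change was recomputed from the library cells (tolerance 1e-06), and the deposited p-value from a ratio test at the mean level. The tolerance on log10(p) was 0.01 at first. A check on rows generated with known alterations found 19 of 20 altered rows with it. The row that was missed had almost no fold change, so that its p hardly depended on its level. The tolerance was then set by the digits printed, at 0.003 for p below 1e-04 and 1e-05 above. It found all 20 of 20 and failed 0 unaltered rows. The generated rows used the formula and rounding of the check itself, and the tolerance was revised on the same kinds of alteration. These counts thus do not measure how many altered rows would be found in the real table. Both tolerances failed the same number of rows by p-value in the real table, 4. The largest difference among members that passed was 0.000134. At the minimum level, 26 genes had no comparison to check. A row that passed may still hold altered cells.

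Reads were recovered as the smallest whole numbers that give a gene's 3 RPKM values, within 0.001, for a length of up to 50000 nt, with totals found from genes of up to 200 nt. This succeeded for 12388 of 12403 genes (99.9%). Intervals are exact Clopper-Pearson (95%) and cover counting error only. Ratios used a pseudocount of 1 RPKM, understate changes of low genes, and were taken where the mean over libraries reached 1 RPKM. Alternatives were other pseudocounts, filters, scalings and limits.

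Members, role groups and lists were chosen with earlier results of these data known. All members could be named, and levels in every library were given for those past 1.5-fold, on opposite sides of si-Control, failing the row check or highest in si-Control. Others of the lists were named after their values were seen. The p-value formula, the tolerances, the intervals between the si-RBCK1 libraries and the shares of all genes beside them, the counts of siRNA matches and the omission of failing rows from all genes tested were also chosen after the data were seen. COP1 was matched to RFWD2 by synonym after a first pass. Statistics used scipy 1.17.1, tables pandas 2.3.3 and numpy 2.4.6, and plots matplotlib 3.10.9, under Python 3.11.15.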

Additional observations from a re-analysis of the deposited data

Results flagged for a closer look

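The following 3 members had counting intervals on opposite sides of si-Control in the si-RBCK1 libraries, a criterion set after the data were seen. The difference between the siRNAs was not tested, since each was 1 library. The ratio of KLF4 was 0.2482 in si-RBCK1 #1 and -0.1601 in si-RBCK1 #2. The ratio of TNFRSF10B was 0.2635 in si-RBCK1 #1 and -0.3380 in si-RBCK1 #2. The ratio of CYFIP2 was -0.1487 in si-RBCK1 #1 and 0.2783 in si-RBCK1 #2. All 3 lay within 1.5-fold of si-Control.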

How the results depend on the processing

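No paired analysis was possible because there was a single library for each siRNA, and leaving out a library would leave no comparison. With a pseudocount of 5 RPKM the member medians were 0.4288 in si-RBCK1 #1 and 0.3193 in si-RBCK1 #2, and 3 and 2 members were at least 2-fold higher. A larger pseudocount draws low genes toward 0 by construction, and the share of all genes was not counted at this setting. The mean over members in place of the median was 0.5147 and 0.4011. A limit of 1.5-fold gave 16 and 12 higher members, against 12% and 11.2% of all genes. With the 4 failing rows included as listed, medians were 0.6617 and 0.5715, and 12 and 9 members were at least 2-fold higher. The shares of all genes tested, which leave out failing rows, were 2.83% and 2.45%. No alternative turned the direction of a median, but several could not have done so. Pseudocounts keep the sign of every member, dropping the filter kept the same members, and the failing rows are all listed higher. There were 224 values of single members under other pseudocounts and scalings. Of these, 44 differed from the reported value by more than the width of its counting interval on that side. The pseudocount of 5 RPKM gave 29 of the 44. While 0 values changed sign, a pseudocount cannot change a sign, so only the scalings could have done so. Depth limits ACER2 most, with 45 reads in si-Control, and the single library per condition limits every comparison.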
